A study of Sus scrofa with 9 samples.

Results

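Mammary tissue of lactating Large White sows 17 days after farrowing (day 17, 3 pools) was set against tissue of the same sows 17 days before farrowing (day -17, 3 pools). These 6 of the series' 9 pooled samples were chosen by their labels alone, and the remaining 3 pools, taken 1 day after farrowing (day 1), allow a change to be tested separately before and after that day. All 6 sows were biopsied on all 3 days and received no treatment beyond a corn and soybean meal diet. The first and last biopsies had a window of 2 days either way. The labels write the last as -17 +/- 2, read here as 17 +/- 2. Each array carried RNA of 2 sows mixed in equal volumes, so a pool hides the difference between its sows and the p-values below measure the spread between pools. A biopsy holds epithelium, fat, connective tissue, vessels and immune cells together, and no cell type was separated.

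Expression is given as the signal of an Affymetrix porcine probe set, on a linear scale on which every array had been brought to 1 trimmed mean (500.088 to 500.112). Pool-to-pool Spearman correlations across probe sets were 0.966 to 0.976 within day -17, 0.954 to 0.956 within day 17 and 0.896 to 0.908 between these days. Arrays have no sequencing depth, and the number of arrays limits the precision. A log2 difference is given with its standard error from limma (n = 3 pools per day), and a gene is "called" when its limma p, adjusted over all 15519 probe sets tested, is under 0.05. Each of 5673 genes is represented by its brightest tested probe set. Levels are not compared between genes, since probe sets differ in brightness for reasons other than transcript number.

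The pig mammary gland grows during late pregnancy as epithelial lobules replace fat in a connective tissue bed. At farrowing progesterone is withdrawn while prolactin and glucocorticoids act, and alveolar cells begin to export caseins, whey proteins, lactose and membrane-wrapped fat droplets on a large scale. Milk secretion then increases over the following weeks, the milk changes from colostrum to mature milk, and plasma cells in the gland supply IgA that the epithelium carries into milk.

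Genes of milk proteins, milk fat, sterol synthesis and IgA transport were higher on day 17 than in late pregnancy, whereas most called genes of fat cells, cell division and connective tissue were lower. Of 15519 probe sets, 7223 were called (46.5%): 3367 higher (21.7%) and 3856 lower (24.8%) on day 17. Among the 5673 genes, 2701 were called (47.6%), with 1349 higher and 1352 lower (23.8% each). The pools of the 2 days did not overlap for 9155 probe sets (59%). At least a 4-fold difference was reached by 990 of the called probe sets, 460 higher and 530 lower, and at least 8-fold by 314, of which 161 were higher. The median absolute log2 difference was 0.576, against 0.396 from day -17 to day 1 and 0.335 from day 1 to day 17, comparisons that share arrays with it. In a bulk biopsy, fewer cells of a type and less RNA per cell cannot be told apart.

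All directions are relative to the trimmed mean of the array, and that reference moved against the added control transcripts. All 18 hybridization control probe sets, of E. coli and bacteriophage genes, were brighter on day 17 than on day -17. They rose without overlap by a median of 1.27, and the median rise from day 1 to day 17 was 0.86. Scaling each array to these controls lowers every log2 difference by 1.29 for day 17 against day -17 and by 0.87 for day 17 against day 1, and moves the median of all tested probe sets from -0.08 to -1.37. A rise smaller than these amounts becomes a fall under that scaling, which is named below as control scaling, and it leaves 479 probe sets higher and 12656 lower. The 20 brightest probe sets held 6.93% to 7.03% of the summed signal on day 17 and 3.37% to 3.92% on day -17. What moved the control signal was not tested.

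**Figure D1:**
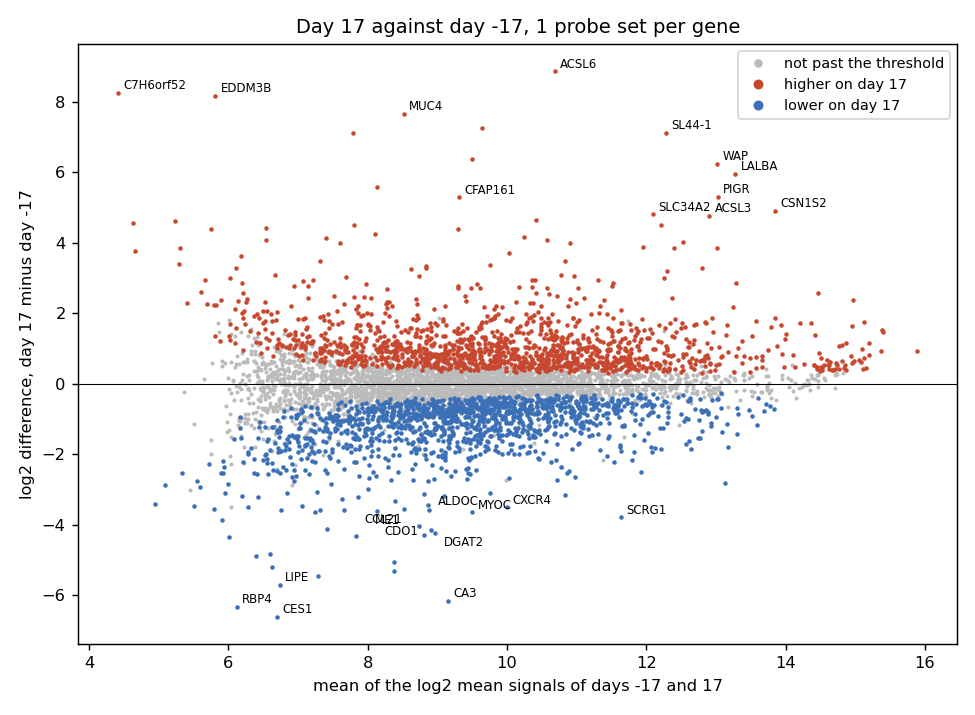
Log2 difference, day 17 minus day -17 (vertical axis), against the mean of the 2 days' log2 mean signals (horizontal axis) for 5673 genes, with called genes in red (1349 higher) and blue (1352 lower) and the genes with the largest changes named. The largest rises reach past 8 on the log2 scale and the largest falls past -6, both among genes dim on one of the days.

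Among genes bright enough on both days to be above the filter level, the largest rises were those of SL44-1, WAP, LALBA, PIGR, CFAP161, CSN1S2, SLC34A2 and ACSL3, from 27-fold for ACSL3 to 138-fold for SL44-1. SL44-1 had signals of 327, 332 and 646 on day -17 and 58597, 60056 and 52333 on day 17 (log2 difference 7.11 ± 0.24, adjusted p = 6.79e-08). CFAP161, named for a protein of cilia and flagella, stood at 113, 78.6 and 114 on day -17, 982, 1092 and 1096 on day 1 and 3591, 4314 and 3876 on day 17. It rose again after day 1 (1.89 ± 0.17, adjusted p = 0.000645), and the 3 days did not overlap. The 8 largest falls were those of DGAT2, CDO1, CCL21, SCRG1, MYOC, ALDOC, ME1 and CXCR4, from 11.4-fold for CXCR4 to 18.9-fold for DGAT2. CXCR4, a chemokine receptor of leukocytes and other cells, fell from 2821, 4090.3 and 3503 to 242, 339.7 and 331 (-3.51 ± 0.27), and most of that fall was present on day 1, at 351, 763 and 504.

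Some of the widest distances belonged to genes that were dim in pregnancy. ACSL6, a long-chain acyl-CoA synthetase, had signals of 79.8, 113 and 44.1 on day -17, 14584, 9702 and 14404 on day 1 and 34282, 34296 and 34012 on day 17. Its log2 difference over the whole interval was 8.86 ± 0.29, a 465-fold rise, or 378-fold with 16 added to each signal. C7H6orf52 and EDDM3B, an epididymal secretory protein, stood at 0.8, 1.3 and 1.7 and at 4.2, 2.3 and 3.3 on day -17, signals near the bottom of the array, and at 388, 301 and 409 and 938, 1439 and 540.0 on day 17. EGF, the epidermal growth factor that is secreted into milk, went from 106, 65 and 70.3 through 4369, 1599.8 and 2529 on day 1 to 7204, 6150.4 and 6047 (6.36 ± 0.32). Its day -17 values lay far below all others.

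The milk protein genes were all called higher on day 17, 7 of 7, beside 23.8% of all genes. Their median log2 difference was 2.56 against -0.032 over all genes. They encode the caseins, which form the micelles of milk, and the whey proteins. WAP, whey acidic protein, had signals of 873, 652 and 1415 on day -17 and 70542, 71028 and 69419 on day 17, a 75.6-fold rise (6.24 ± 0.23, adjusted p = 1.37e-07). LALBA, the alpha-lactalbumin that turns a galactosyltransferase into lactose synthase, went from 1146, 749 and 2053 to 74226, 74363 and 76415 (5.96 ± 0.30). CSN1S2, alpha-S2-casein, went from 2854, 1649.7 and 3809 to 79059, 82250.1 and 74759 (4.91 ± 0.26). In these 3 genes the days lay far apart.

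The probe sets of the other caseins had signals of 6611 or more in late pregnancy, and their distance to day 17 was shorter. Beta-casein, CSN2, stood at 11555, 6611 and 10217 on day -17 and 52699, 55734 and 54609 on day 17 (2.56 ± 0.19), and kappa-casein, CSN3, at 14768, 9836 and 18255 and 71062, 72135 and 71035 (2.37 ± 0.20). Alpha-S1-casein, CSN1S1, rose from 24862, 23804 and 27138 to 72578, 72751 and 72383 (1.52 ± 0.12). PAEP, the whey protein beta-lactoglobulin, had the smallest distance of the 7, from 17316, 17183 and 23048 to 40184, 40225 and 40023 (1.08 ± 0.17). The range of log2 differences within the group ran from 1.08 for PAEP to 6.24 for WAP, and no pool of either day overlapped with the other in any of the 7 genes.

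From day 1 to day 17 these genes moved by nearly the same amount. The 7 log2 differences lay between 0.75 for CSN2 and 0.84 for CSN1S1, and 5 of the 7 were called, beside 8.04% of all genes called higher in this comparison. Over the same interval the hybridization controls rose by 0.86, and under control scaling the 7 differences ran from -0.12 to -0.03 with 0 of 7 called. PAEP was called over that interval (0.78 ± 0.17, adjusted p = 0.0148) and not before it (0.30 ± 0.17, 0.212), but was also not called over the whole interval under control scaling (-0.21, 0.174). The call after day 1 held for CSN1S1 whichever pool was left out, was lost for PAEP without day 17 pool 3 (adjusted p = 0.0504), for WAP without any day 1 pool or any day 17 pool (adjusted p = 0.071 to 0.108), for CSN2 without day 1 pool 1 or 2 or any day 17 pool (adjusted p = 0.0569 to 0.0893) and for CSN3 without day 1 pool 1 or 2 or any day 17 pool (adjusted p = 0.06 to 0.0834). On day 17, CSN1S1, CSN3, CSN1S2, LALBA and WAP had signals close to the highest on their arrays (82250 to 83677), and whether their signal could still rise in proportion there was not tested.

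**Figure D2:**
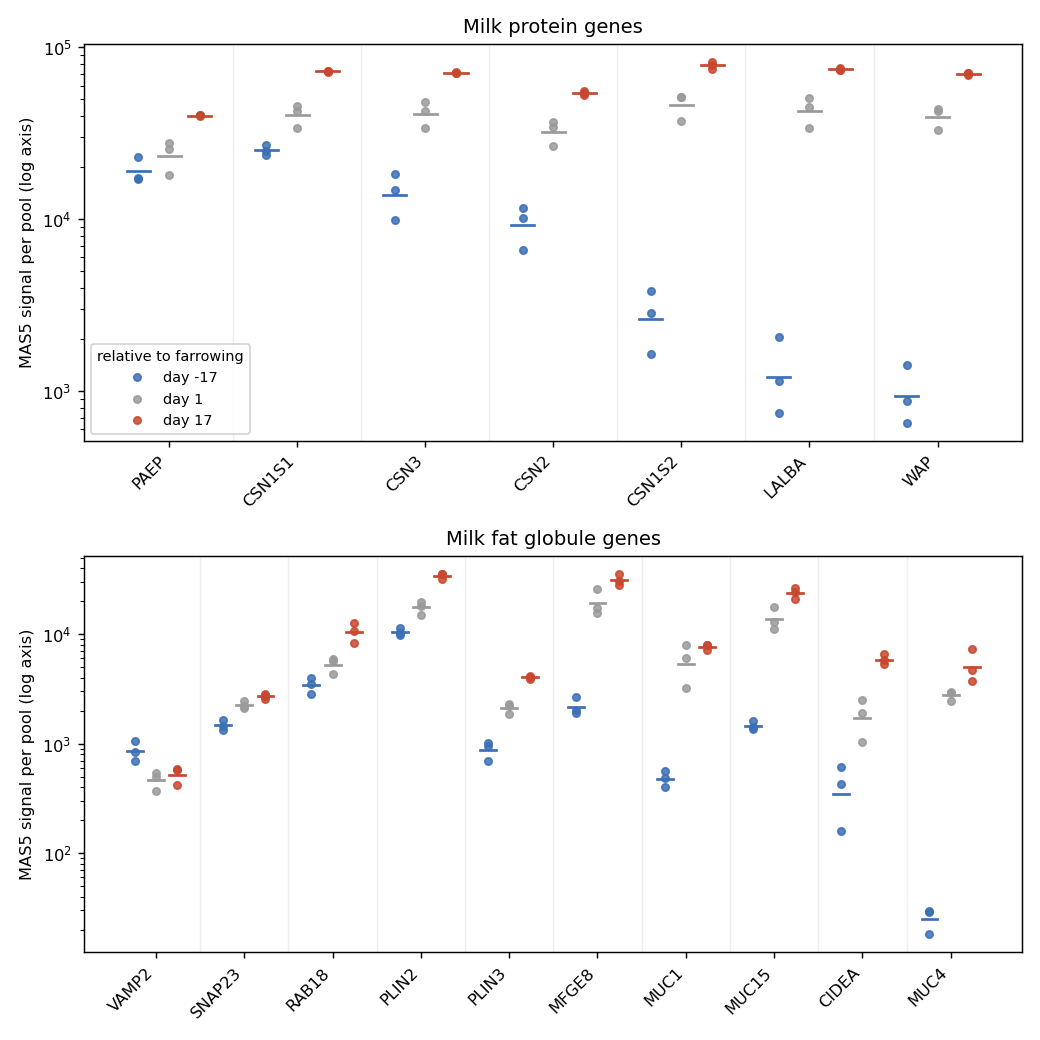
Signal per pool on a log axis for the 7 milk protein genes (upper panel) and the 10 milk fat globule genes (lower panel) on day -17 (blue), day 1 (grey) and day 17 (red). Points are pools and short lines are geometric means of 3 pools. On day -17 the pools of WAP, LALBA and CSN1S2 reach 3809 at most and those of the other milk protein genes start at 6611 (CSN2), while on day 17 the 7 genes start at 40023 (PAEP) and day -17 overlaps with day 17 in none.

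Genes for the milk fat droplet and its membrane coat rose as a group, 9 of 10, beside 23.8% of all genes. Their median was 3.02. MUC4, a mucin of the apical surface, stood at 18.1, 29.2 and 29.7 on day -17, 2918, 2453 and 2968 on day 1 and 4719, 7317 and 3697 on day 17, and day 17 overlapped with neither earlier day. MUC1 and MUC15, further apical mucins, rose 16-fold and 16.3-fold, and MFGE8, lactadherin, 14.3-fold. CIDEA, which promotes lipid droplet enlargement, went from 608, 159 and 426 to 6537, 5761 and 5296 (4.08 ± 0.45). PLIN2 and PLIN3, coat proteins of the droplet, rose by 1.71 and 2.21 and rose again after day 1, by 0.97 ± 0.12 and 0.92 ± 0.16, calls that held whichever pool was left out. RAB18 and SNAP23, of the trafficking machinery, rose by 1.61 and 0.88. VAMP2, a vesicle fusion protein, fell (-0.71 ± 0.21, adjusted p = 0.0199), a call lost without day -17 pool 3 or day 17 pool 1 (adjusted p = 0.0769 to 0.0805). Under control scaling 7 of the 10 were still called higher over the whole interval and 0 from day 1 to day 17, when 6 had been called.

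Fatty acid and triglyceride synthesis held related enzymes that moved in opposite directions. Of 36 genes, 21 rose, 7 fell and 8 did not pass the test (median 0.91), beside 23.8% of all genes called in each direction. ACSL3 and ACSL6, which activate long-chain fatty acids, rose, ACSL3 from 1250.4, 1636 and 1553 to 41848, 37499 and 39788 (4.75 ± 0.16), whereas their relatives ACSL1 and ACSL5 fell (-2.11 ± 0.38 and -1.66 ± 0.16). The first acylation of glycerol-3-phosphate is made by GPAM and GPAT4. GPAM went from 126, 113 and 198 through 545, 447 and 482 on day 1 to 1902, 1245 and 1198, and GPAT4 from 820.5, 615 and 652 through 2843, 2128 and 2482 to 5963, 5326 and 5882. In both the 3 days stood fully apart and each step was called.

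The last step of triglyceride synthesis is shared by 2 unrelated enzymes that moved in opposite directions. DGAT1 rose from 349, 208 and 265 to 1027, 1099 and 595 (1.71 ± 0.26), with 376, 315 and 371 on day 1, while DGAT2 went from 3179, 778 and 3119.7 to 85.6, 98.1 and 135 (-4.24 ± 0.53) and was already down on day 1, at 234, 86.6 and 139.7. Likewise the desaturase SCD rose (1.63 ± 0.29) and its relative SCD5 fell (-3.58 ± 0.37), with no overlap between days -17 and 17 in either. FASN, the fatty acid synthase, rose 3.43-fold, ACSS2, which activates acetate, 3.97-fold, FABP3, a fatty acid carrier, 3.34-fold, and LPL, which releases fatty acids from blood lipoproteins, 3.38-fold. ACACA, which commits acetyl-CoA to fatty acid synthesis, was dim, with a geometric mean signal of 14 on day -17 and 109.7 on day 17 (3.40 ± 0.76), and it fell below the filter when day 1 pool 3 or day 17 pool 1 or 2 was left out. ME1, malic enzyme, a source of NADPH, fell (-3.56 ± 0.62).

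From day 1 to day 17, 12 of these 36 genes were called higher and 1 lower, beside 8.04% and 8.57% of all genes, and 8 of those 13 calls held whichever pool was left out: GPAM, GPAT4, DGAT1, ACSL3, ACSL6, ACSS2, FABP3 and ACSL5. That of LPL was lost without day -17 pool 3, any day 1 pool or any day 17 pool (adjusted p = 0.0573 to 0.12), that of SCD without day -17 pool 1, any day 1 pool or any day 17 pool (adjusted p = 0.0501 to 0.12) and that of FASN without day 17 pool 2 or 3 (adjusted p = 0.0541 to 0.0561). Under control scaling the median of the list turns from 0.91 to -0.38, with 9 genes higher and 18 lower. GPAM and GPAT4 (2.03 and 1.76) and ACSL3 and ACSL6 (3.46 and 7.57) kept their rise over the whole interval there. From day 1 to day 17, only 1 of the 36 genes was called higher under that scaling, and 18 were called lower. ACSL3 and ACSL6 were not called in that interval (0.29 and 0.56, adjusted p = 0.091 and 0.116).

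Most cholesterol synthesis genes were called higher by day 1. Of 11 genes 9 rose from day -17 to day 17 (median 1.97), beside 23.8% of all genes. By day 1, 10 had risen, beside 15.2% of all genes (list median 1.99). Only SC5D was called higher after day 1 (1.12 ± 0.17). Under control scaling 0 of the 11 were called higher after day 1 and 7 lower (median -0.89). HMGCS1, an early enzyme of the pathway, stood at 450.5, 654 and 498 on day -17, 6395, 6765 and 6819.9 on day 1 and 8676, 3484 and 6615 on day 17. HSD17B7, a later enzyme, went from 101, 209 and 108 to 627, 2684 and 1221 (3.27 ± 0.45). NSDHL and FDPS, also of the pathway, fell after day 1 (-1.08 ± 0.23 and -0.67 ± 0.18), and the call of FDPS was lost without day -17 pool 3, day 1 pool 2 or 3 or any day 17 pool (adjusted p = 0.0514 to 0.116). INSIG1, a sterol-responsive brake on the pathway counted here with lipid synthesis, rose 14.4-fold by day 17 and was called again after day 1 (0.89 ± 0.22), a call lost without day 1 pool 2 or 3 or day 17 pool 1 or 3 (adjusted p = 0.064 to 0.0908).

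For lactose, 5 of 13 genes rose, 2 fell and 6 did not pass the test, beside 23.8% of all genes called in each direction. The median was -0.01 against -0.032 over all genes. B4GALT1, the catalytic part of lactose synthase, went from 2495, 1954 and 2458 to 23640.0, 24608 and 18376 (3.27 ± 0.16), and UGP2, which makes the UDP-glucose precursor, from 4248, 3311 and 3589 to 30280.2, 25937 and 24276 (2.85 ± 0.17). SLC2A1, the widespread glucose transporter, rose 2.17-fold, and SLC2A4, the insulin-responsive one, 3.51-fold. The phosphoglucomutases were divided, PGM2 higher (1.26 ± 0.14) and PGM1 lower (-0.66 ± 0.16). HK1, the hexokinase that traps glucose as its phosphate, fell in both steps, from 2022, 2120.3 and 2573 through 1458, 1549 and 1576 to 908, 930.1 and 839.9 (-1.32 ± 0.13). UGP2 and HK1 kept their call after day 1 whichever pool was left out. That of B4GALT1 was lost without day 1 pool 1 or 2 or day 17 pool 1 or 2 (adjusted p = 0.0549 to 0.106). The first step of HK1 was lost without day -17 pool 3 (adjusted p = 0.0566). Under control scaling the later rises of UGP2 and B4GALT1 were not called (0.099 and -0.26, adjusted p = 0.59 and 0.156), while HK1 still fell (-1.65). After day 1, 0 of the 13 genes were called higher there and 9 lower.

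Mineral transport held both an early and a late member. Of 12 genes, 5 rose, 2 fell and 5 did not pass the test (median 0.35), beside 23.8% of all genes called in each direction. SLC34A2, a sodium-phosphate cotransporter, went from 1149, 720.1 and 648 to 15774, 9341 and 17668 on day 1 and 21889, 24704 and 21373 on day 17 (4.80 ± 0.26), and ORAI1, a pore of store-operated calcium entry, rose 8.45-fold. ATP2C2, a calcium pump of the secretory pathway, rose from 133, 417 and 299 to 2906, 2871 and 2192 (3.37 ± 0.40). STIM2, the calcium sensor that opens ORAI1, overlapped on days -17 and 1 (326, 338 and 275, then 294, 285 and 384) and reached 569, 581 and 731 on day 17 (0.97 ± 0.18 after day 1). Under control scaling 1 of the 12 genes was called higher after day 1, PTHLH, which is described below, and 5 were called lower. STIM2 and ATP2C2 were not called higher there (ATP2C2 0.63, adjusted p = 0.177). CA3, a carbonic anhydrase plentiful in fat and muscle, went the opposite way, from 7592, 1657 and 5732 to 29.1, 83.7 and 81.4 (-6.16 ± 0.86).

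Amino acid transporters rose in 6 of 12 and fell in 1, beside 23.8% of all genes called in each direction. The other 5 did not pass the test (list median 0.43). SLC6A14, a concentrative transporter of neutral and basic amino acids, went from 21, 37.4 and 5.5 to 1933, 967 and 2643 on day 1 and 2998, 1547 and 2387 on day 17 (137-fold, or 64.4-fold with 16 added). Without day -17 pool 3, its dimmest, the log2 difference was 6.31, and without day -17 pool 2 it was 7.70, against 7.10. Its other probe set gave 3.59. SLC7A4 rose 4.19-fold, with day -17 values of 30.2, 52.8 and 56.5 and day 17 values of 216, 167 and 183. SLC38A1 fell (-1.27 ± 0.36), a call lost without day -17 pool 2 or 3 or day 17 pool 3 (adjusted p = 0.0514 to 0.0585).

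More genes of protein folding and export were called higher on day 1 than on day 17. Of 61 genes of the endoplasmic reticulum and secretory pathway, 38 rose from day -17 to day 17, 1 fell and 22 did not pass the test (median 0.66). The share of all genes called was 23.8% in each direction. By day 1 50 had risen, beside 15.2% of all genes (median 0.87), and from day 1 to day 17 15 fell and 1 rose, beside 8.57% and 8.04% of all genes (median -0.22), although only 2 of these 16 calls held in every fit with 1 pool left out. HSPA5, the central chaperone of the compartment, stood at 5343, 5939 and 5525, then 12245, 16180.5 and 19856 on day 1 and 10454, 9899 and 8476 on day 17, and the 3 days did not overlap. The fall of HSPA5 after day 1 (-0.72 ± 0.17) was lost without day 1 pool 2 or 3 or day 17 pool 2 or 3 (adjusted p = 0.0516 to 0.0751). CRELD2 and SEC11C, a stress-responsive protein and a subunit of the signal peptidase, rose most by day 17, CRELD2 from 327, 478 and 587 to 2152, 1869 and 2121 and SEC11C from 4346, 4678 and 4807 to 19865, 20398 and 21558. XBP1, a transcription factor of secretory cells, rose by 0.95 ± 0.12. CREB3L2 was the 1 gene that fell (-0.50 ± 0.18, adjusted p = 0.0406), a call lost without day -17 pool 1 or 3, day 1 pool 3 or any day 17 pool (adjusted p = 0.0519 to 0.121). Under control scaling the list's median is -0.63, with 5 genes higher and 42 lower.

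The cytosolic protein synthesis genes moved less, and 23.8% of all genes were called in each direction. Ribosomal proteins rose in 29 of 58 and fell in 4 (median 0.33), a direction that turns under control scaling (-0.97) and under quantile normalization (-0.25). RPS18, among the brightest of all probe sets, went from 40167, 39527 and 54155 to 83601, 81956 and 83676 (0.91 ± 0.16), and turned to -0.07 under quantile normalization. Its gene has 3 tested probe sets, and the others gave -0.02 and 0.40. RPL37 fell (-0.90 ± 0.13). Aminoacyl-tRNA synthetases, which charge tRNAs, rose in 1 of 15 and fell in 4 (median -0.34; 2 falls if day 17 pool 2 or 3, or day -17 pool 2, is left out), with NARS higher (0.46 ± 0.12) and FARSB lower (-0.78 ± 0.16). FARSB had values of 1668, 1981 and 1814 on day -17, 1606, 1788 and 2453 on day 1 and 988, 1056 and 1139 on day 17.

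The lists differed in how far their day 1 median lay from their day 17 median. The milk protein list went from a median of 1.81 on day 1 to 2.56 on day 17, both against day -17, and the fibroblast matrix list from -0.43 to -1.20. For cholesterol synthesis the medians were nearly equal.

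**Figure D3:**
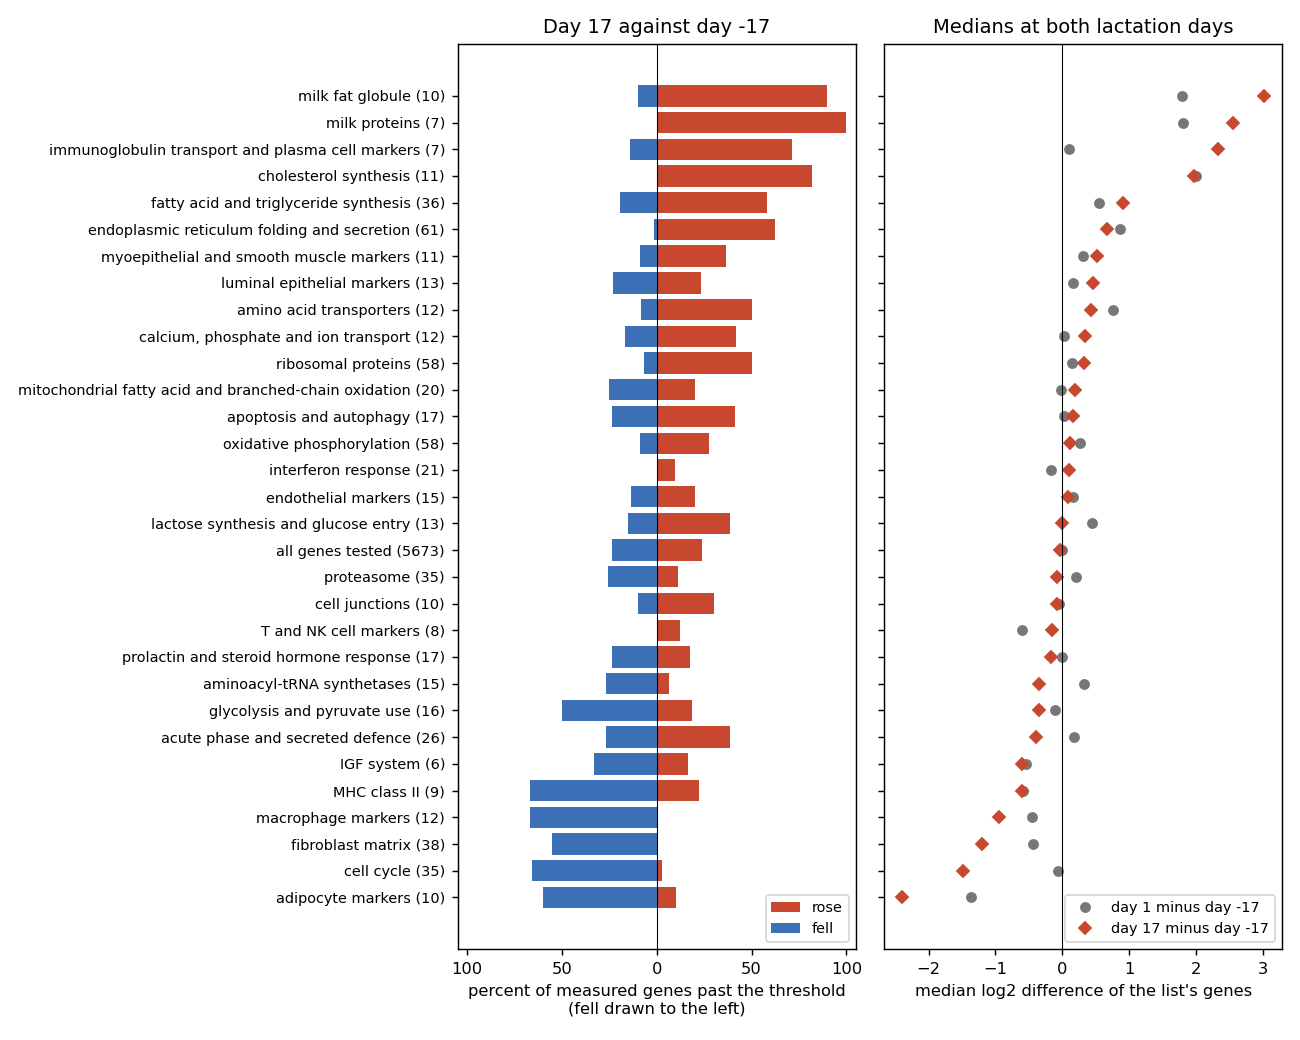
Left, percent of each list's measured genes (number in brackets) called higher (red, to the right) or lower (blue, to the left) on day 17 than on day -17. Right, median log2 difference of each list's genes from day -17 to day 1 (grey circles) and to day 17 (red diamonds), with all 5673 genes as a row of their own (23.8% in each direction). The plasma cell and cell cycle lists have day 1 medians near 0 (0.11 and -0.061) and day 17 medians of 2.34 and -1.49. The 2.34 is the value of CD79B, which passed the filter only through the day 17 pools.

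Changes complete only by day 17 were defined as genes called in the same direction both against day -17 and against day 1. There were 746 such genes (13.2% of 5673), 375 higher (6.61%) and 371 lower (6.54%). Of these, 520 (9.17%) were not called between day -17 and day 1, a day 17 step, with 223 higher (3.93%) and 297 lower (5.24%). Another 217 (3.83%) had been called in that direction by day 1 and moved on, 148 of them higher (2.61%) and 69 lower (1.22%). The last 9 were called on day 1 in the opposite direction. By contrast 542 genes higher (9.55%) and 398 lower (7.02%) on day 17 were called by day 1 and not again after it, and 418 higher (7.37%) and 582 lower genes (10.3%) were called only over the whole interval. A gene not called by day 1 need not have been unchanged then.

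The count of such genes was lower with any 1 array left out and changed with scaling. Both comparisons behind it use the day 17 pools. A fit without a pool also has less power, so a lost call need not mean dependence on that pool. It was 374 without day 17 pool 1, 439 without day 17 pool 2 and 374 without day 17 pool 3, and 511 to 730 without one of the other arrays. The higher genes among them numbered 185, 209 and 187 without day 17 pools 1, 2 and 3, and the lower ones 189, 230 and 187, or 234 without day 1 pool 3. The day 17 step numbered 266, 317 and 271 without those day 17 pools, and the genes that moved in both steps 101, 115 and 99, or 133 with day -17 pool 3 left out, 109 with day 1 pool 2 and 131 with day 1 pool 3. Under control scaling 22 genes were higher and 4076 lower.

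The largest rises of the day 17 step were those of PTHLH, TNFRSF17, MYLK, P14ARF, SSTR5 and GZMH. PTHLH encodes parathyroid hormone-related protein, a hormone of the lactating gland that mobilises calcium from bone. It had signals of 165, 106 and 156 on day -17, 126, 39.3 and 57.9 on day 1 and 2078, 767 and 1010.3 on day 17. The rise after day 1 was 4.15 ± 0.45 (adjusted p = 0.00126), and it was 3.28 under control scaling. SSTR5, a somatostatin receptor, went from 17.4, 14.1 and 37.5 and 23.5, 18.2 and 66.2 to 205, 223 and 189.7, and P14ARF, a growth-restraining product of the CDKN2A locus, from 11.7, 96.5 and 62.8 and 42.1, 123 and 123 to 636, 789.7 and 553. GZMH, a granzyme of cytotoxic lymphocytes, reached 345, 642 and 426 from 121, 92.1 and 129.6 and 162, 54.4 and 76.5.

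By the rule that chose these 6, their day 17 pools lay above all earlier pools, but several were dim before. MYLK, the myosin light chain kinase of contractile cells, had signals of 5.6, 7.7 and 2.5 on day -17 and only 94.4, 114 and 134 on day 17, close to the filter level of 89.2, so that it fell below the filter when any day 17 pool was left out, and its call after day 1 was also lost without day -17 pool 2 or any day 1 pool (adjusted p = 0.0543 to 0.0749). SSTR5 likewise fell below the filter without any one of the day 17 pools. The call of P14ARF after day 1 was lost without day 1 pool 1 or any day 17 pool (adjusted p = 0.052 to 0.0761), and its log2 difference over the whole interval was 3.07 when day -17 pool 1 was left out and 4.59 for day -17 pool 2, against 3.98. Under control scaling GZMH was not called over the whole interval (0.72, adjusted p = 0.125).

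**Figure D4:**
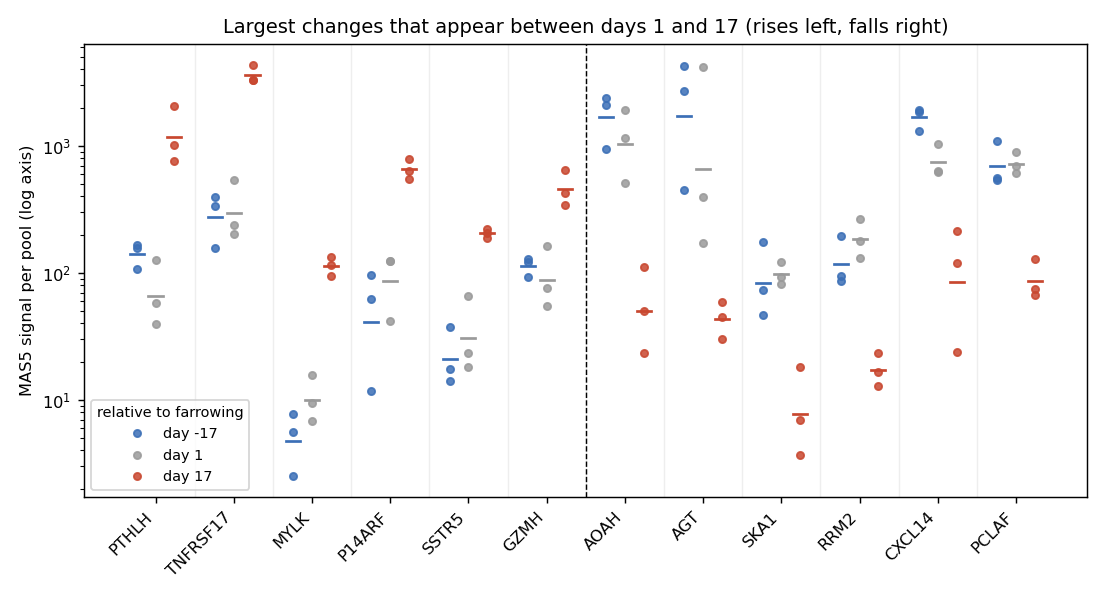
Signal per pool on a log axis for the 6 largest rises (left of the dashed line) and the 6 largest falls (right) among genes called on day 17 against both earlier days and not between those. Blue, grey and red are days -17, 1 and 17, points are pools and short lines geometric means. The 12 genes were chosen among those whose 3 day 17 pools lie outside the range of the 6 earlier pools.

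Genes of IgA supply belonged in part to this late phase, 2 as a day 17 step and 2 with a rise in both steps. Of 7 measured genes of immunoglobulin transport and plasma cells, 5 rose, 1 fell and 1 did not pass the test from day -17 to day 17. Of all genes 23.8% were called in each direction. The list's median was 2.34, or 1.72 without day -17 pool 1 and 2.92 without day -17 pool 3. The 2.34 is the value of CD79B, 1 of the 5 rises, which passed the filter only through the day 17 pools. Between day -17 and day 1 the median was 0.11, and from day 1 to day 17 it was 1.42, with 4 called higher, beside 8.04% of all genes. TNFRSF17, the survival receptor BCMA of plasma cells, stood at 158, 339 and 396 on day -17, 542, 239 and 203 on day 1 and 4365, 3281 and 3317 on day 17 (3.60 ± 0.40 after day 1). JCHAIN, the chain that joins IgA into dimers, stood at 6122, 9305 and 8076, 10507, 9398 and 5690.1 and 27676, 28178 and 27887 on the same days (1.76 ± 0.22 after day 1). In both, days -17 and 1 overlapped and day 17 lay apart.

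The epithelial partners had begun to rise earlier. PIGR, the receptor that carries polymeric IgA across the epithelium, went from 1114, 1480.3 and 1411 through 19505, 15929.7 and 23919 on day 1 to 54168, 49093 and 53313 (5.30 ± 0.16 in all, 1.42 ± 0.16 after day 1). CCL28, a chemokine that attracts IgA-secreting cells, went from 1577, 1451 and 2224 through 4269, 5505 and 6870.1 to 13695, 13921 and 13331. The B-cell receptor gene CD79B had signals of 11.9, 29.1 and 63.1 on day -17 and 156, 129 and 139.7 on day 17 (2.34 ± 0.59), but it passed the filter only through the day 17 pools and fell below it when any of them was left out. SDC1, a plasma cell and epithelial marker, had a difference of -0.32 ± 0.37 that did not pass the test. FCGRT, the Fc receptor that binds IgG, fell (-0.60 ± 0.18, adjusted p = 0.0219), a call lost without day -17 pool 1 or 3 or day 17 pool 1 or 3 (adjusted p = 0.0638 to 0.0712). The 4 rises after day 1 were also called under control scaling, 2.73 for TNFRSF17, 0.89 for JCHAIN, 0.55 for PIGR and 0.46 for CCL28, where 41 of 5673 genes were called higher.

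Cell division genes fell late. Of 35 measured, 23 fell from day -17 to day 17 and 1 rose, beside 23.8% of all genes called in each direction. The other 11 cell division genes did not pass the test (list median -1.49). The list's median between day -17 and day 1 was -0.061, with 2 called in each direction (15.2% of all genes higher and 10.4% lower). From day 1 to day 17 it was -1.14 with 20 called lower, beside 8.57% of all genes called lower. Of these 20 calls 11 held whichever pool was left out. RRM2, a subunit of the ribonucleotide reductase that makes DNA precursors, stood at 95, 193 and 85.9 on day -17, 132, 178 and 267 on day 1 and 16.6, 23.6 and 12.8 on day 17 (-3.43 ± 0.45 after day 1). CCNB1, the cyclin of mitotic entry, stood at 368, 926 and 489, 452, 626 and 1066 and 64.7, 89.4 and 124 (-2.90 ± 0.40).

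Replication and mitosis were both represented. MCM3 and MCM5, of the replicative helicase, fell by 2.0 and 1.67 on the log2 scale after day 1, and NUSAP1, DLGAP5 and UBE2C, of the mitotic spindle and its exit, fell by 1.21, 1.92 and 1.99. PCLAF, a partner of the replication clamp, went from 535, 1102 and 555 and 610.3, 689.5 and 898 to 66.4, 128 and 75.1, with days -17 and 1 overlapping. SKA1, of the kinetochore, was low throughout, 46.2, 175 and 73, then 81.2, 92.9 and 123 and finally 3.7, 18.3 and 7, and fell below the filter without day -17 pool 2 or day 1 pool 2 or 3. Without day 17 pool 2 its fall from day -17 was -4.04 in place of -3.43. STMN1, a microtubule regulator, and RRM1, the other reductase subunit, fell over the whole interval (-2.37 ± 0.26 and -1.54 ± 0.19). GMNN, an inhibitor of replication licensing, was the 1 gene that rose (0.65 ± 0.18), and it falls under control scaling (-0.64).

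**Figure D5:**
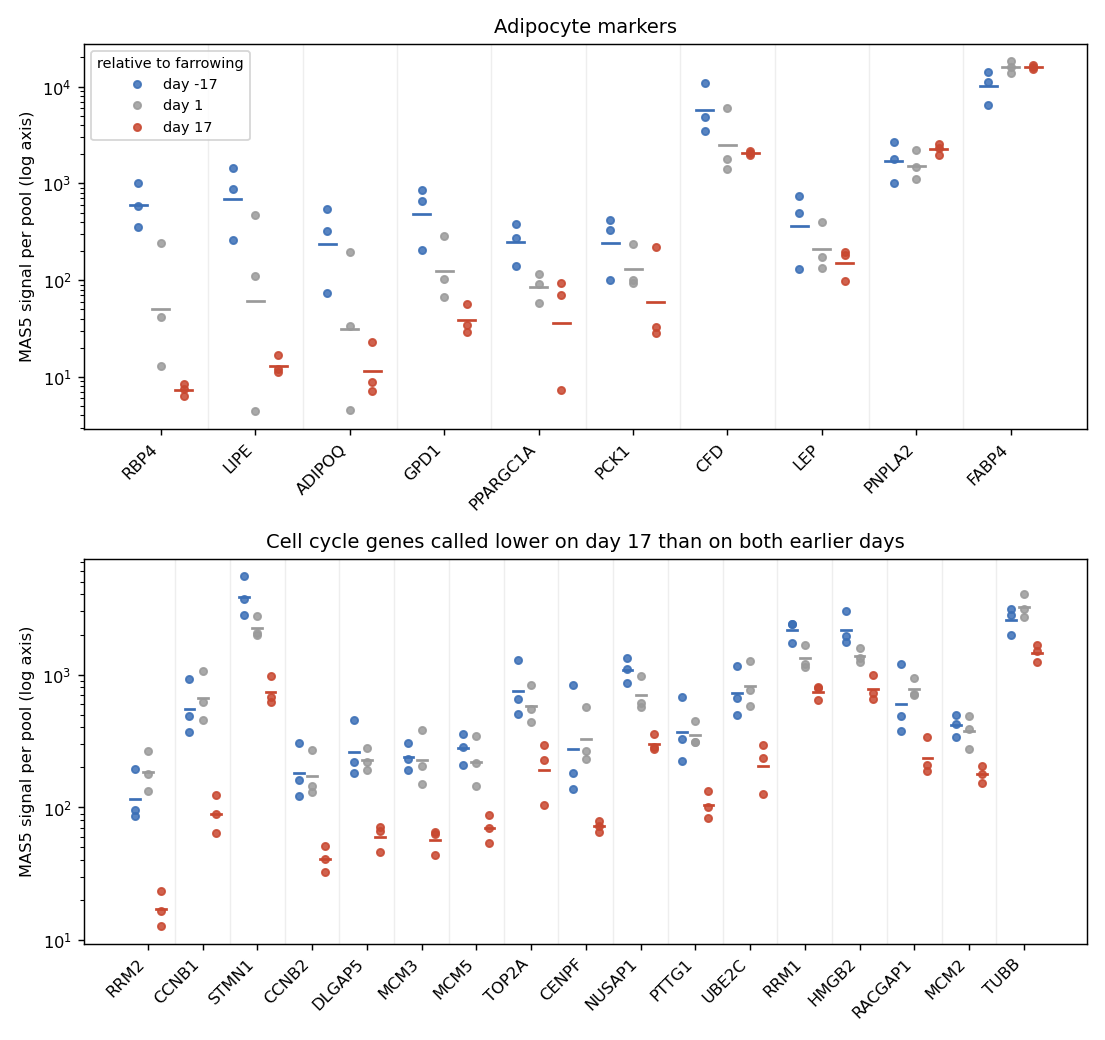
Signal per pool on a log axis for the 10 adipocyte markers (upper panel) and for the 17 cell cycle genes called lower on day 17 than on both other days (lower panel); colours, points and lines as in the other plots of pools. In the upper panel the lowest day -17 point is pool 2 for all genes but PPARGC1A, and in the lower panel days -17 and 1 lie together above day 17 for most genes.

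Connective tissue genes fell or did not pass the test. In the fibroblast matrix list 21 of 38 genes fell and 0 rose (median -1.20), beside 23.8% of all genes in each direction. There were 12 called lower after day 1 (8.57% of all genes) and 5 by day 1 (10.4%). Of the 12 later calls 5 held whichever pool was left out. VCAN, a large proteoglycan, went from 2357, 2894 and 2743 through 1432, 859 and 1778 to 419, 394 and 423 (-2.69 ± 0.23), and the 3 days did not overlap. S100A4, a protein of fibroblasts and leukocytes, fell 8.66-fold, from 4785, 1383 and 1896 to 250.3, 362 and 213. TIMP1, an inhibitor of matrix proteases, was called higher on day 1 (0.59 ± 0.16), a call lost without day -17 pool 2 or 3 or day 1 pool 3 (adjusted p = 0.0714 to 0.0953), and fell after it, from 2316, 1997 and 2983 to 449, 443 and 382 (-2.50 ± 0.16). The fibrillar collagen genes COL1A2 and COL5A1 fell over the whole interval (-1.37 ± 0.24 and -1.31 ± 0.28).

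IGFBP5, a binding protein of insulin-like growth factors, moved with these late falls. It stood at 2428, 968 and 1292 on day -17, 1581, 1378 and 493 on day 1 and 119, 185 and 110.5 on day 17 (-2.93 ± 0.45 after day 1, adjusted p = 0.00451). Of 6 genes of the IGF system 1 rose, IGF1 (1.36 ± 0.21), 2 fell and 3 did not pass the test (median -0.60). The share of all genes called was 23.8% in each direction. The other tested probe set of IGF1 gave -0.14. IGF2 was called lower on its brightest probe set (-0.80 ± 0.24), but its 9 probe sets ran from -1.81 to 3.03, so no direction is given for it. Its call was also lost without day -17 pool 2 or day 17 pool 1 (adjusted p = 0.0542 to 0.0548).

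The other large late falls were AOAH, AGT and CXCL14. AOAH, an enzyme that inactivates bacterial lipopolysaccharide, stood at 947, 2396 and 2101 on day -17, 506, 1909.5 and 1154 on day 1 and 23.2, 49.8 and 111 on day 17 (-4.36 ± 0.61 after day 1). CXCL14, a chemokine, went from 1308, 1857 and 1928 and 624, 637 and 1026 to 119.8, 23.8 and 213. Its pools on day 17 were spread widely, and the fall from day -17 was -3.39 with the second of them left out and -4.97 with the third left out. AGT, angiotensinogen, varied widely between pools on both earlier days (4228, 445 and 2691, then 4185, 398 and 173) and stood at 59.3, 30 and 45.1 on day 17. Its call after day 1 was lost without day -17 pool 3, day 1 pool 1 or 2 or any day 17 pool (adjusted p = 0.0539 to 0.11), and its fall from day -17 was -4.67 without day -17 pool 1 and -6.29 without pool 2.

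Among genes that fell in both steps, CES1, SLC46A2, PDE6C and MAOB had the longest distance. CES1, a carboxylesterase of lipid metabolism, went from 1291, 363 and 1498 through 123, 58.9 and 122 to 7.3, 6.1 and 17.1. SLC46A2 went from 662, 525 and 447 through 164, 250.2 and 85.6 to 22.9, 25.6 and 5.2, and was -4.47 without day 17 pool 3 against -5.21, while its first step was lost without any day -17 pool, day 1 pool 1 or 3 or day 17 pool 1 (adjusted p = 0.0512 to 0.168). MAOB, which degrades monoamines, went from 499, 924 and 1404 through 131, 216 and 302 to 15.1, 57.6 and 91.3, and PDE6C, a phosphodiesterase of cone cells, from 423, 416 and 366 through 60.7, 45.5 and 72.1 to 7.1, 36.2 and 9.6. All days stood apart in these 4 genes. The second step of MAOB was lost without day -17 pool 2, day 1 pool 2 or 3 or day 17 pool 1 or 2 (adjusted p = 0.0516 to 0.116), the first without day -17 pool 2 or 3 or any day 1 pool (adjusted p = 0.0571 to 0.12), and without day 17 pool 1 its whole distance was -3.58. That of PDE6C was lost without any day 1 pool or day 17 pool 1 or 3 (adjusted p = 0.0537 to 0.096), without day 17 pool 2 its distance was -5.60, and without any day -17 pool it was below the filter.

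Adipocyte markers fell in 6 of 10 and rose in 1, beside 23.8% of all genes called in each direction. The other 3 did not pass the test (list median -2.39), and 3 falls were left without day -17 pool 3. Leaving out day -17 pool 1 gave a median of -1.63, and leaving out pool 3 gave -1.80. LIPE, the hormone-sensitive lipase, stood at 1425, 257 and 876 on day -17 and 16.8, 12 and 11.2 on day 17 (-5.70 ± 1.36), and RBP4, the retinol carrier, at 1017, 352 and 581 and 6.3, 7.5 and 8.5 (-6.33 ± 0.88). With 16 added to each signal the fall of LIPE was 24.1-fold in place of 52.2-fold and that of RBP4 26.0-fold in place of 80.2-fold. ADIPOQ, the hormone adiponectin, went from 547, 73.9 and 319 through 195, 33.5 and 4.6 to 23.2, 8.9 and 7.2. Day -17 and day 17 pools did not overlap in these 3 genes, and ADIPOQ was below the filter without day -17 pool 1, day -17 pool 3 or day 1 pool 1. FABP4, the fatty acid carrier of adipocytes, was called higher (0.66 ± 0.24, adjusted p = 0.0447), a call lost without day -17 pool 2 or 3, day 1 pool 3 or any day 17 pool (adjusted p = 0.0597 to 0.115) and turned to -0.63 by control scaling. The summed signal of the 10 markers was 12242 to 32775 on day -17 and 19813 to 21207 on day 17, and FABP4 made up most of the day 17 sum. Such a sum is of signal and not of transcript number.

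The late-pregnancy pools differed in these markers, and other falling genes differed with them. Pool 2 of day -17 had the lowest value of the 3 in ADIPOQ, LIPE, RBP4, DGAT2, ME1, CDO1, ALDOC, MYOC, CA3 and CES1. CDO1, cysteine dioxygenase, stood at 3462, 631 and 2634 on day -17 and 77.2, 123 and 108 on day 17 (-4.15 ± 0.68). ALDOC, a brain-type aldolase, stood at 3112, 488 and 1939 and 148, 102 and 112, and MYOC, myocilin, at 4739, 848 and 2411 and 298, 212 and 77.9. Without day -17 pool 2 the log2 differences were -4.92 for DGAT2, -4.90 for CDO1, -4.31 for MYOC and -4.37 for ALDOC. They were -4.34 for ME1, -7.25 for CES1, -6.82 for CA3 and -6.41 for LIPE. In each of these genes the fall as a linear fold change was more than 1.5-fold larger than with that pool. The part of a smaller fat content in these falls was not tested.

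Other markers of cell types in the biopsy were mixed, beside 23.8% of all genes called in each direction. Luminal epithelial markers rose in 3 of 13, fell in 3 (23.1% each) and did not pass the test in 7 (median 0.46). EPCAM, a surface protein of epithelium, rose from 6785, 9418 and 10443 to 28884, 25380.2 and 28341 (1.65 ± 0.19), and ST14, an epithelial protease, by 1.44 ± 0.28. KRT8, a keratin of luminal cells, fell (-1.48 ± 0.48) from 2178, 6925 and 5745 to 1652, 1828 and 1328, a call lost without day -17 pool 2 or 3 or any day 17 pool (adjusted p = 0.0523 to 0.0981). Without day -17 pool 1, the lowest of its day, 5 luminal markers were called lower in place of 3, and without day -17 pool 3 or any day 17 pool it was 1. Myoepithelial and smooth muscle markers rose in 4 of 11 and fell in 1 (median 0.52), with MYL9 higher (737, 816 and 862, then 2320.0, 2662 and 3221) and TPM2 lower (-1.16 ± 0.24), although the 3 other probe sets of TPM2 ran from -1.21 to 0.97.

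Vessel and blood markers were called in both directions, beside 23.8% of all genes in each. Of 15 endothelial markers 3 rose and 2 fell (median 0.09), and only 1 of those 5 calls held whichever pool was left out. The rises were 0 if day -17 pool 2 or day 17 pool 3 was left out and 1 for day 17 pool 1 or 2, while the falls were 4 for day 1 pool 1 and 1 for day -17 pool 1 or 3 or day 17 pool 1 or 2. VCAM1, an adhesion molecule, fell (-1.27 ± 0.30), and NOS3 and SELP, the endothelial nitric oxide synthase and P-selectin, were called higher (1.04 ± 0.34 and 0.93 ± 0.27) but turned under control scaling. The call of NOS3 was lost without day -17 pool 2 or any day 17 pool (adjusted p = 0.0541 to 0.0866) and that of SELP without day -17 pool 2 or day 17 pool 3 (adjusted p = 0.0584 to 0.0682). HBB, the beta chain of haemoglobin, fell from 1472, 1569 and 1346 through 845, 751 and 741 to 603, 589 and 556 (-1.33 ± 0.13), 1 of 2 falls among 4 erythrocyte markers (median -1.82). The other, ALAS2, varied from 1412, 97.2 and 206 on day -17 and overlapped with day 17 (-2.84 ± 0.98), and its call was lost without day -17 pool 1 or 3 or day 17 pool 2 or 3 (adjusted p = 0.0565 to 0.12). Its difference became -3.67 when day -17 pool 2 was left out and -3.55 for day 17 pool 1. The 1 measured skeletal muscle marker, TNNI2, had low signals of 149.9, 447 and 284 and 72.2, 150.4 and 95.2 (-1.40 ± 0.49) that overlapped, a call lost without day -17 pool 2 or 3 or day 17 pool 1 or 3 (adjusted p = 0.0881 to 0.139). The 1 skin keratinocyte marker, KRT10, did not pass the test (0.079 ± 0.18).

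Macrophage markers fell in 8 of 12 and rose in 0 (median -0.95), beside 23.8% of all genes called in each direction. The falls were 5 without day -17 pool 1, day 17 pool 1 or day 17 pool 3. SIRPA, an inhibitory receptor of myeloid cells, went from 1256, 1049 and 976 to 318, 228 and 237 (-2.08 ± 0.29), and GPNMB, a glycoprotein of macrophages, from 1238, 888 and 1108 to 274, 241 and 278 (-2.02 ± 0.28). The other probe set of SIRPA gave -0.71 and was not called. CD163, the haemoglobin scavenger receptor, had a difference of -0.89 ± 0.43 that did not pass the test. Of 8 T and NK cell markers 1 rose (median -0.15), IL2RG (0.73 ± 0.21), and it turned under control scaling and was lost without day -17 pool 1 or 3 or day 17 pool 1 (adjusted p = 0.0545 to 0.0725). Of 2 neutrophil markers neither passed the test (median -0.13), with NCF1 at 30.6, 264 and 84.3 on day -17 and 71.6, 83.4 and 45.6 on day 17. CCL21, the chemokine that draws lymphocytes and dendritic cells, fell from 1761, 1429 and 1598 to 146, 156 and 39.2 (-4.04 ± 0.62, or -3.39 without day 17 pool 3). SCRG1, a gene first described in scrapie-infected brain, went from 8655, 12141 and 14926 to 791, 742 and 1002 with day 1 values as far apart as 1237, 5321 and 15648.

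MHC class II genes, which present antigen, fell in 6 of 9 and rose in 2 (median -0.61). Of all genes 23.8% were called in each direction. SLA-DQB1 went from 2179, 3792 and 4035 to 1261, 1438 and 1409.5 (-1.23 ± 0.23) and SLA-DRB1 from 2321, 3043 and 3266 to 1357, 1611 and 1255 (-1.02 ± 0.17), both down by day 1. SLA-DMA, which loads peptides, rose on its brightest probe set (1.51 ± 0.20), and its other probe set gave 0.41 and was not called. Of the 6 falls 2 were left without day -17 pool 2 or 3 or day 17 pool 3. Leaving out day 17 pool 1 or 2 left 3. The rises were 1 with day -17 pool 1 or 2, day 1 pool 2 or day 17 pool 1 or 3 left out. Near-identical copies of these genes may share probes. The interferon response list rose in 2 of 21 (9.52%) and fell in 0 (median 0.10), both below the 23.8% of all genes. It rose in 5 without day -17 pool 3, but in 1 without day -17 pool 2 or day 17 pool 1 or 3. The rises were those of IFI35 (0.80 ± 0.16) and IFI44L (0.65 ± 0.19), the latter lost without day -17 pool 2 or day 17 pool 1 or 3 (adjusted p = 0.0595 to 0.0652), and its 2 other probe sets were -0.46 and -0.04.

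Some secreted defence proteins were raised by day 1 and not called lower after it, and others fell. Of 26 genes, 10 rose, 7 fell and 9 did not pass the test (median -0.39), beside 23.8% of all genes called in each direction. HP, haptoglobin, stood at 96.4, 70.4 and 33.3 on day -17, 7595, 13444 and 13724 on day 1 and 13719, 8312 and 6865 on day 17, and LBP, which binds lipopolysaccharide, at 36.3, 51.6 and 34.9, 1055, 2359.9 and 1954 and 1669, 2005 and 2109. LTF, the milk protein lactoferrin, rose 3.02-fold (1.60 ± 0.27) and PGLYRP1, which binds bacterial peptidoglycan, 22.5-fold. Neither LTF nor PGLYRP1 was called again after day 1 (0.15 ± 0.27 and -0.076 ± 0.20). Under control scaling 0 of the 26 genes were called higher after day 1 and 16 lower. Those called lower held HP (-1.15, adjusted p = 0.025) and LBP (-0.69, adjusted p = 0.0421). CFB, complement factor B, fell late, from 268, 243 and 208 and 588, 362 and 150.0 to 57.6, 52.8 and 25.2. The list's median became 0.37 without day -17 pool 1.

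Energy metabolism genes were called in both directions, beside 23.8% of all genes in each. Of 16 genes of glycolysis and pyruvate use 8 fell and 3 rose (median -0.35), and the falls were 5 without day -17 pool 3. GAPDH, a glycolytic enzyme often used as a reference gene, stood at 15179, 13089 and 15680.4 on day -17, 12408, 12683 and 16069 on day 1 and 8363, 9406 and 8523 on day 17 (-0.64 ± 0.13 after day 1), and TPI1 and LDHB fell in that interval too (-0.80 ± 0.13 and -1.0 ± 0.18). ENO3, the muscle enolase, fell (-3.19 ± 0.72, or -3.90 without day 17 pool 2), while PGK1 rose (0.72 ± 0.16) and turned under control scaling. Oxidative phosphorylation rose in 16 of 58 (27.6%) and fell in 5 (8.62%, median 0.12). The falls were 10 if day 1 pool 1 or 3 was left out, and 3 if day -17 pool 3, day 1 pool 2 or any day 17 pool was. The examples were small, 1.18 ± 0.17 for NDUFB2, 0.95 ± 0.14 for NDUFV2 and -0.63 ± 0.13 for SDHA, whose other probe set gave 0 and was not called. In fatty acid and branched-chain oxidation 4 of 20 rose and 5 fell (20% and 25%, median 0.19), shares near those of all genes. ACADM was higher (1.44 ± 0.15) and ACADL and HADHA were lower (-1.56 ± 0.20 and -1.32 ± 0.16).

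Protein turnover, junction and cell death genes were called in both directions too, beside 23.8% of all genes in each. Proteasome genes fell in 9 of 35, a share (25.7%) near that of all genes, and rose in 4 (11.4%, median -0.08). The largest of these falls were those of PSME1 and PSME2, the interferon-inducible activator subunits. They went from 6760.1, 8301 and 9043 to 2387, 2581 and 1945 and from 1583, 1956 and 1994 to 732, 530.2 and 758. PSMD12, of the regulatory particle, rose (1.28 ± 0.20). Of 10 cell junction genes 3 rose and 1 fell (median -0.08). CLDN3 and OCLN, of tight junctions, rose by 2.28 ± 0.29 and 1.85 ± 0.19, and GJA1, a gap junction connexin, fell (-1.44 ± 0.27). Falls numbered 3 with day 1 pool 1 or 2 left out and 2 with day -17 pool 1 left out. Apoptosis and autophagy genes rose in 7 of 17 and fell in 4 (median 0.16), with BCL2L11, a promoter of apoptosis, higher (1.37 ± 0.27), ATG3 higher (0.93 ± 0.12) and ATG7 lower (-1.29 ± 0.24).

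Of 17 hormone response genes 3 rose, 4 fell and 10 did not pass the test, beside 23.8% of all genes called in each direction (median -0.16). The falls were 2 without day -17 pool 2 or 3 and 1 without day 17 pool 1, the rises were 0 without day -17 pool 3 and 1 without day 17 pool 1 or 2, and 1 of the 7 calls held in every fit with 1 pool left out, that of CEBPB (-0.74 ± 0.14), a transcription factor of the gland that was lower on day 17. STAT5A, which carries the prolactin signal, had values of 2033, 3508 and 2167 and 1324, 1712 and 1248 (-0.82 ± 0.25), and its call was lost without day -17 pool 2 or day 17 pool 1 or 3 (adjusted p = 0.0703 to 0.0834). FOXA1, a partner of steroid receptors, fell (-2.21 ± 0.65, or -2.95 without day -17 pool 1), and its call was lost without day -17 pool 2 or 3 or day 17 pool 1 (adjusted p = 0.0645 to 0.0708). SOCS1, an inhibitor of cytokine signalling, fell (-1.58 ± 0.53) on a probe set whose partner gave 0.89, and the call was lost without any day -17 pool or day 17 pool 1 or 2 (adjusted p = 0.054 to 0.112). OXTR, the oxytocin receptor of milk ejection, was called higher (1.17 ± 0.38) with overlapping days (71.9, 131 and 73.6, then 311, 199 and 128), a call lost without day -17 pool 1 or 3 or day 17 pool 1 or 2 (adjusted p = 0.0669 to 0.112). PGR, the progesterone receptor, had a difference of -0.16 ± 0.46 that did not pass the test.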

How the data were processed

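RNA of 6 Large White sows was pooled by 2 and hybridized as biotinylated cRNA to 9 Affymetrix porcine arrays, 3 per day. The deposited intensity values are linear MAS5 signals, per the submitters' processing notes (version not given in the sources used here), and each array's trimmed mean, leaving out 2% at either end, was close to 500.1 as tested on the values. From these intensity values, as deposited by the authors, log2 was taken with no pseudocount. The table holds 24123 probe sets, of which 124 are controls. Probe sets at or above the array's 40th percentile in at least 3 arrays (15519) were tested with limma 3.58.1 in R 4.3.3 (lmFit, eBayes with intensity trend, day as the only term, 9 arrays, two-sided, Benjamini-Hochberg, threshold 0.05). All adjusted p-values are from this fit or a refit of it, with 1 array left out, control scaling or another alternative setting where the text says so. An exact permutation test of 3 against 3 cannot go below p = 0.1.

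Of all probe sets 10099 carry 1 gene symbol in the platform annotation, 198 several and 13826 none, and 3744 of the called ones are unnamed here. A gene with several tested probe sets (1404 genes) is given by the one with the highest mean log2 signal. Of 1036 symbols in 34 gene lists 697 were matched to the array.

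Named by rule were the 8 largest rises and 8 largest falls with both days above the filter level and no overlap, and the 4 and 4 largest with one day below that level. So were the 6 and 6 largest changes after day 1 among genes of the day 17 step whose day 17 values lay outside the other 6. Also named were the 4 and 4 largest among genes called in both steps, and of each list 2 called genes in the main direction and 1 in the other, or the gene with the smallest p. Further members of the lists were named after their values were seen. The lists, the rule and the comparison were chosen with earlier results of these data known.

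Pools with the same number on days -17 and 17 deviated together from their day means (correlation across probe sets 0.105 to 0.13 for the 3 pairs, -0.0739 to -0.0421 for unlike numbers). Deviations from a day mean cancel within the day, so the negative values follow from the positive ones. A fit with pool number as a block was made as an alternative. Other alternatives were quantile normalization, median centring, scaling to the hybridization controls, a pseudocount of 16, other filters, no intensity trend, the 6 arrays alone and leaving out each array. In simulated data of this layout 100 of 15519 probe sets changed 2-fold and 100 changed 4-fold. Of these, 35 and 83 were recovered, and 6.35% of calls were false. In the deposited data 46.5% of probe sets were called, so these rates need not hold there. The planned search of promoter sequences was not carried out.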

Additional observations from a re-analysis of the deposited data

Results flagged for a closer look

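Outside the endogenous probe sets, the 18 hybridization control probe sets gave a signal that was higher on day 17 than on day -17, by a median of 1.27 on the log2 scale (range 0.907 to 1.76), with no overlap between the days for 18 of 18. These controls are added to each hybridization in fixed amounts, so their signal does not come from the tissue. What moved them was not tested.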

How the results depend on the processing

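Scaling to the hybridization controls called 13135 probe sets (479 higher, 12656 lower) and placed 4098 genes (22 higher, 4076 lower) among those completed only by day 17, 2115 in the day 17 step and 1901 in the genes called in both steps. The shift of every difference by the scaling itself accounts for these numbers. It reversed NARS (-0.83), GMNN (-0.64), OXTR (-0.12), IFI35 (-0.50), IFI44L (-0.65), RPS18 (-0.38), RPS3A (-0.57), NDUFB2 (-0.11), NDUFV2 (-0.34), PSMD12 (-0.0104), PGK1 (-0.58), ATG3 (-0.36), IL2RG (-0.57), NOS3 (-0.26), SELP (-0.37), FABP4 (-0.63) and KRT10 (-1.21). Quantile normalization reversed RPS18 (-0.073) and RPS3A (-0.25), and the mean over probe sets reversed IGF2 (0.18). Of the other named genes with several probe sets that mean left 8 within the pool spread and moved 15, in the same direction, among them SLC6A14 to 5.35, SLA-DMA to 0.96, SIRPA to -1.39, SDHA to -0.32, SOCS1 to -0.35 and TPM2 to -0.31. The causes were not tested. KRT10, not called, lay between -0.052 and 0.16 with 1 array left out, at or below 0 for day -17 pool 1 and day 17 pool 3 (-0.013). Higher and lower calls numbered 3710 and 3367 under median centring and 3683 and 3572 under quantile normalization. Without the intensity trend 141 genes were called in both steps. The call of CREB3L2 was lost under quantile normalization, under median centring, without the filter and without the trend (adjusted p = 0.0506 to 0.144). That of FABP4 was lost under quantile normalization, without the filter, without the trend and with the 6 arrays alone (adjusted p = 0.0524 to 0.33). The call of SOCS1 was lost with the 6 arrays alone (adjusted p = 0.0545) and that of ALAS2 without the trend (0.0526). A minimum of 2-fold left 3809 probe sets (1743 higher, 2066 lower), and 1 probe set per gene left 2701 (1349 higher, 1352 lower), which counts fewer features.

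Leaving out 1 array gave 5812 to 7605 called probe sets (2727 to 3492 higher, 2969 to 4113 lower), 374 to 730 genes completed only by day 17 (185 to 367 higher, 187 to 363 lower), 266 to 545 in the day 17 step and 99 to 180 called in both steps. With pool number as a replicate block 7825 probe sets were called (3560 higher, 4265 lower) and 942 genes were completed only by day 17 (445 higher, 497 lower). The block changed the call of none of the 113 named genes, 111 of which were called with and without it. With a pseudocount of 16 all 113 named genes kept their direction and their side of the threshold. The signal over background limits the fold changes of genes below the filter level of 89.2, and whether signals near an array's maximum stay proportional was not tested.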
